A study of Mus musculus with 26 samples.

Results

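The Sprouty, Spred and ERK feedback genes are 10 mouse genes that ERK signalling switches on or that restrain it: Spry1, Spry2, Spry4, Spred1, Spred2, Spred3, Dusp4, Dusp6, Etv4 and Etv5. Each was found under 1 Ensembl identifier among the 54532 identifiers of the count files, and all 10 passed the filter on low counts in both fits described here. The list was chosen by name, for the genes' known role, with earlier results from these same counts in view. Counts and medians over the list are therefore given as a description and support nothing by themselves. Each adjusted p-value is taken over all genes tested.

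Growth factors such as FGF and EGF bind receptor tyrosine kinases, which activate RAS, then RAF, MEK and the kinases ERK1 and ERK2. Active ERK raises transcription of its own inhibitors: Sprouty and Spred proteins act near RAS and RAF, and the phosphatases Dusp4 and Dusp6 remove phosphate from ERK itself. ETV4 and ETV5 are ETS-family transcription factors whose genes are common targets of FGF signalling. Transcript levels of these genes are often used as an indirect readout of ERK activity. ERK phosphorylation was not measured in these libraries.

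The study sequenced mRNA of male mouse aorta, in 26 libraries. The untreated experiment has 4 groups of 4 libraries: ascending and descending aorta of wild type (WT) mice, and the same regions of mice heterozygous for Fbn1 C1041G. Fbn1 encodes fibrillin-1, a microfibril protein of elastic tissue, and C1041G/+ mice are a model of Marfan syndrome; WT animals were littermates. The antisense experiment has 5 libraries of C1041G/+ ascending aorta after AGT-ASO, an antisense oligonucleotide (ASO) against angiotensinogen mRNA, and 5 after a control ASO. It holds no WT, no descending aorta and no mice without an oligonucleotide, so every animal in it carries the mutation. The labels do not state age, dose or duration, nor which animals the libraries came from, so p-values measure the spread between libraries. Library numbers 1 to 8 recur in both regions and were assumed to mark the 2 regions of 1 mouse.

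Libraries held 17171652 to 28554356 counts. The smooth muscle score, the mean log2 CPM of 10 marker genes, was 9.3 to 9.48 as a group mean in all 6 groups, and every one of these markers was detected in each group. CPM is the usual depth-scaled count, computed by edgeR with TMM factors. The 2 experiments were scaled separately, and their levels are not compared. Agt was at or below 1.495 CPM in every library, and AGT-ASO (0.09612 to 1.467) and Control-ASO (0.3011 to 0.7866) overlapped. The gene is known to be expressed mainly in liver, so its aortic level does not check the labels. Fbn1 was at 227.1 to 507.2 CPM over the 26 libraries, and a point mutation leaves no mark in a count. Untreated libraries that stand apart on a marker score are WT ascending 3 (highest heart score), mutant ascending 2 (highest lymphocyte score) and WT descending 5 (lowest macrophage and fibroblast scores). In whole tissue, fewer cells of a type and less RNA per cell cannot be told apart.

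The promoters below are shown for 3 genes that behaved differently: Spry1 and Etv5, which were higher in ascending than in descending aorta in both genotypes, and Spred2, which passed the test in no comparison. Sequences are RefSeq promoters on GRCm38.p6, the mm10 build, given 5′ to 3′ on the gene's strand from 250 bases before the annotated start to 30 bases into the transcript. Capitals mark the PEA3 site, AGGAAG on either strand, a binding motif of the ETV4 and ETV5 subfamily.
Spry1, chr3:37639697-37639976, plus strand: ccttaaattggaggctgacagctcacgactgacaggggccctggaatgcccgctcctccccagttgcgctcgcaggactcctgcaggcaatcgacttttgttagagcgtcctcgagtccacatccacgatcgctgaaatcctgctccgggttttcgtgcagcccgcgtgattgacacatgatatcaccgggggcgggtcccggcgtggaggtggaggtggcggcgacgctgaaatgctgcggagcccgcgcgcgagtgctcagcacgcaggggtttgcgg
Etv5, upstream start, chr16:22439541-22439820, minus strand: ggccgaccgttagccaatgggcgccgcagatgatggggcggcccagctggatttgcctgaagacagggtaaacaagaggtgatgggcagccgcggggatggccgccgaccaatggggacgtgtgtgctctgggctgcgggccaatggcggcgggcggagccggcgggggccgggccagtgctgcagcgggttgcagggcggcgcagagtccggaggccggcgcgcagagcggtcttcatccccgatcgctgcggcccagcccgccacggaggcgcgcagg
Etv5, downstream start, chr16:22438339-22438618, minus strand: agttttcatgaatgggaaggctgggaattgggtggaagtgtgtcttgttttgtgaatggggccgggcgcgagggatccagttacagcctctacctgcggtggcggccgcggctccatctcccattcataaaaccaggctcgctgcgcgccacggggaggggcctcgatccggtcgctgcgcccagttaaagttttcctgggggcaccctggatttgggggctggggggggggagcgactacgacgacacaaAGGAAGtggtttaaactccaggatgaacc
Spred2, chr11:19924192-19924471, plus strand: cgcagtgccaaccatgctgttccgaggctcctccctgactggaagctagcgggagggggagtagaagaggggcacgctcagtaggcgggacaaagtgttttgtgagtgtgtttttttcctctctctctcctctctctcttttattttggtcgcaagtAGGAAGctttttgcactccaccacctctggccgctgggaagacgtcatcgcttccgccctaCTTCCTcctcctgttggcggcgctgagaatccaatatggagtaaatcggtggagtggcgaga

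RefSeq promoters were matched for 7 of the 10 genes, with 8 start sites in all; Spry4, Dusp4 and Etv4 had no entry that was used. In the full windows of 300 bases, the PEA3 site was found in 3 of 8 promoters. Positions count from the start site. Spred2 held 2 matches, at -93 and, on the reverse strand, at -32. Dusp6 held 1 at -210 on the reverse strand, and the downstream Etv5 start held 1 at position 1. Of 32851 RefSeq promoters of that length, 35.4% held the motif. The ETS core CCGGAAG (8.86% of promoters), the AP-1 site TGANTCA (7.81%), the CRE TGACGTCA (1.79%) and the CArG box (1.63%) were in 0 of the 8, searched on both strands. The AGGAAG and CCGGAAG motifs share the letters GGAAG.

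Levels between genes were compared per kilobase of exon (CPM/kb). In WT ascending aorta Spred1 led with 13.8 ± 0.683 CPM/kb (SD, n = 4), followed by Spry1 with 13.8 ± 2.19. Dusp6 had 11.1 ± 0.176, Spry2 10.6 ± 1.86 and Spred2 10.4 ± 0.89 CPM/kb. Each of these 5 genes overlapped its neighbour in library values, although every Spred1 library was above every Dusp6, Spry2 and Spred2 library. Etv5 had 5.72 ± 1.39 and Spry4 3.96 ± 1.40 CPM/kb, again overlapping each other but lying below the first 5. The lowest levels were those of Dusp4 at 1.36 ± 0.121, Spred3 at 1.10 ± 0.0614 and Etv4 at 0.656 ± 0.0647 CPM/kb, and these 3 did not overlap. With the longest transcript as length Spred3 had 1.68 CPM/kb, above Dusp4. In descending aorta Spred1 was the highest of the list in both genotypes, with 10.9 ± 0.985 CPM/kb in WT and 12.8 ± 0.46 in C1041G/+, and Etv4 the lowest, with 0.156 ± 0.139 and 0.379 ± 0.0541.

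**Figure D1:**
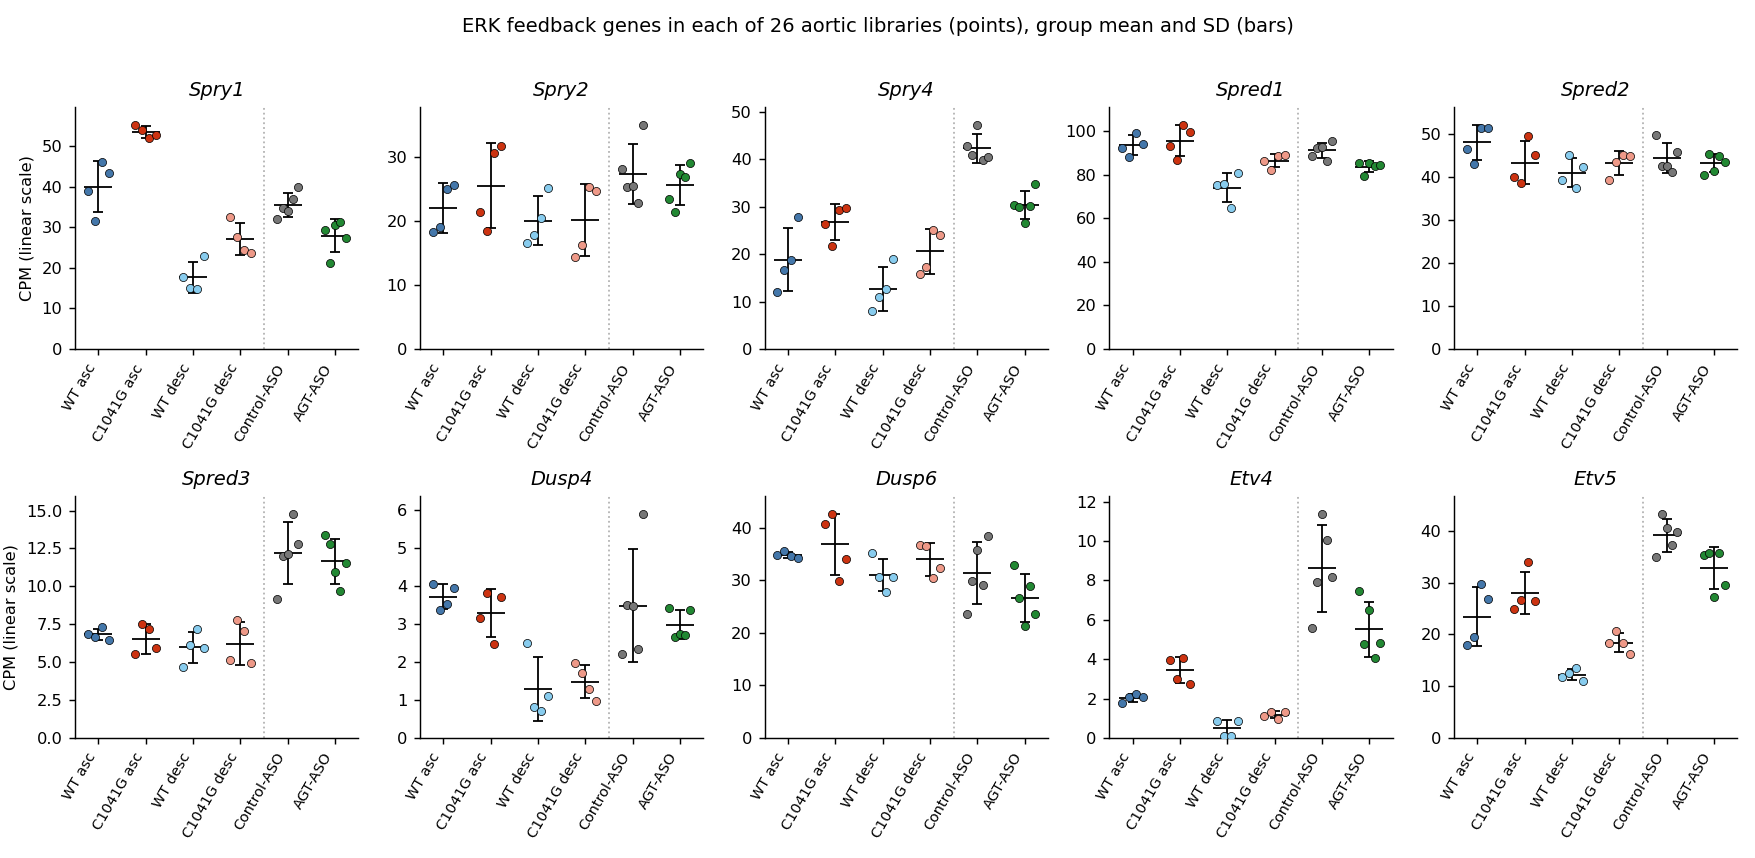
CPM (linear axis from 0) of the 10 genes in each of the 26 libraries. Points are libraries, horizontal bars group means and whiskers SD; groups left of the dotted line are untreated (n = 4 each) and those right of it are antisense groups (n = 5 each), scaled separately. Within each genotype, Spry1, Etv4, Etv5 and Dusp4 separate ascending from descending libraries, and across genotypes only Etv4 of these 4 does. Spry4 separates AGT-ASO (26.5 to 34.7 CPM) from Control-ASO (39.9 to 47.3 CPM).

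The first question was whether ascending and descending aorta differ in these genes. In WT mice, 5 of the 10 genes were higher in ascending than in descending aorta and 0 were lower: Spry1, Spred1, Dusp4, Etv4 and Etv5. Over all 15645 genes tested, 7.82% were called higher. The same 5 genes had no overlap between the groups' libraries, against 9.19% of all genes in that direction. In C1041G/+ mice, 4 were higher and 0 lower, Spry1, Dusp4, Etv4 and Etv5, against 6.41% of all genes called higher. Those 4 also had no overlap, against 8.55% of all genes. The median log2 fold change over the 10 genes was 0.45 in WT and 0.36 in C1041G/+, beside -0.01 for all genes in both (edgeR quasi-likelihood test, Benjamini-Hochberg adjustment). These tests did not pair libraries by number.

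Among the Sprouty genes, inhibitors that act between the receptor and RAF, only Spry1 was called between regions in the fit without pairing of libraries. Its WT ascending libraries had 38.9, 31.6, 46.1 and 43.5 CPM and its WT descending libraries 17.9, 14.99, 14.9 and 22.9 CPM, in mouse order. In C1041G/+ mice the ascending libraries had 55.2, 53.9, 52.1 and 52.6 CPM and the descending libraries 32.5, 27.6, 24.5 and 23.7 CPM. The lowest ascending library exceeded the highest descending library within each genotype, and the mutant descending library of mouse 2 reached the level of 1 WT ascending library. The ascending minus descending log2 fold change was 1.18 ± 0.14 (SE, adjusted p = 1.093e-05) in WT and 0.98 ± 0.138 (adjusted p = 7.851e-05) in C1041G/+, that is 2.26-fold and 1.98-fold. Spry1 lies on chromosome 3, 37639947 to 37644598 (GRCm38), and part of its exons overlaps the gene model Gm42922 on the opposite strand. The strand setting of the counting is unknown here, so Spry1 and Gm42922 reads cannot be told apart.

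Spry2 and Spry4 did not pass the test between regions in the fit without pairing of libraries. Spry2 was at 18.3 to 25.7 CPM in WT ascending and 16.7 to 25.3 in WT descending aorta, and at 18.4 to 31.7 and 14.4 to 25.3 CPM in the mutant regions. The libraries overlapped in both genotypes, with log2 fold changes of 0.13 (95% interval -0.32 to 0.58) and 0.34 (-0.11 to 0.79). Spry4 had 11.95, 16.7, 18.7 and 27.9 CPM in WT ascending libraries and 8.05, 11.0, 12.6 and 18.98 in the descending libraries of the same mice. In C1041G/+ it had 26.3, 21.7, 29.3 and 29.8 CPM in ascending and 15.9, 17.3, 25.1 and 24.1 CPM in descending libraries. The groups overlapped, but within each of the 8 mice the ascending library was the higher one for Spry2 and for Spry4. The Spry4 log2 fold change was 0.57 ± 0.262 in WT (adjusted p = 0.2213) and 0.38 ± 0.255 in C1041G/+ (adjusted p = 0.4724). With library number as a replicate block, the adjusted p of Spry4 was 0.0005569 in WT and 0.00728 in C1041G/+, and that of Spry2 was 0.01091 in C1041G/+. The block thus raised the called members from 5 to 6 in WT and from 4 to 6 in C1041G/+, while calls over all genes in either direction went from 1741 to 2424 and from 1552 to 2321.

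Spred proteins bind RAS-pathway components at the membrane and recruit the RAS inactivator neurofibromin. Spred1 had 92.5, 88.2, 99.4 and 94.0 CPM in WT ascending and 75.4, 75.7, 64.9 and 80.8 in WT descending libraries, with no overlap. Its log2 fold change in WT was 0.33 ± 0.0745 (adjusted p = 0.004911), a 1.26-fold difference. In C1041G/+ mice Spred1 was at 93.3, 86.8, 103.0 and 99.6 CPM in ascending and 86.2, 82.2, 88.5 and 89.1 in descending libraries, which overlapped, and the log2 fold change was 0.15 (95% interval -0.01 to 0.30). Spred2 was at 43.0 to 51.5 CPM in WT ascending and 37.5 to 45.2 in WT descending aorta, with a log2 fold change of 0.23 (0.03 to 0.42) and adjusted p = 0.1446. In C1041G/+ its regions were at 38.7 to 49.6 and 39.2 to 45.2 CPM, with a log2 fold change of 0.00 (-0.19 to 0.19). Spred3, the least expressed Spred gene, was at 4.68 to 7.76 CPM over the 16 untreated libraries and all groups overlapped. Spred3 shares exon bases with Ggn on the opposite strand, and its low counts of 86 to 150 per library are uncertain for that reason.

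The 2 phosphatases behaved differently. Dusp4, an inducible nuclear MAP kinase phosphatase, had 4.06, 3.36, 3.52 and 3.93 CPM in WT ascending libraries and 2.50, 0.813, 0.699 and 1.11 CPM in WT descending libraries. In C1041G/+ it had 3.16, 3.81, 2.46 and 3.71 CPM in ascending and 1.97, 1.70, 1.28 and 0.975 CPM in descending libraries. Every ascending library was above every descending library of its genotype. The log2 fold change was 1.53 ± 0.328 (adjusted p = 0.003552) in WT and 1.15 ± 0.325 (adjusted p = 0.02897) in C1041G/+. These values rest on 12 to 82 counts per library. The mutant call was lost without ascending library 4 or 8 or descending library 6 or 8, with adjusted p of 0.06611 to 0.09657. Dusp6, the cytoplasmic phosphatase specific for ERK, was at 34.4 to 35.6 CPM in WT ascending and 27.7 to 35.3 in WT descending aorta, a log2 fold change of 0.17 (95% interval -0.05 to 0.39). In C1041G/+ its regions were at 29.96 to 42.6 and 30.5 to 36.8 CPM, with a log2 fold change of 0.12 (-0.10 to 0.34).

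Of the ETS factors, Etv4 had the largest regional fold change of the 10 genes in both genotypes. It had 1.76, 2.08, 2.24 and 2.06 CPM in WT ascending libraries and 0.871, 0.102, 0.117 and 0.843 CPM in WT descending libraries, the latter from 16, 2, 2 and 16 counts. In C1041G/+ it had 3.97, 2.99, 4.04 and 2.75 CPM in ascending and 1.12, 1.303, 0.961 and 1.32 CPM in descending libraries. All 4 groups were separate from one another in the order mutant ascending, WT ascending, mutant descending, WT descending. The ascending minus descending log2 fold change was 2.06 ± 0.435 (adjusted p = 0.003135) in WT and 1.54 ± 0.39 (adjusted p = 0.01452) in C1041G/+. The mutant call was lost without descending library 6 (adjusted p = 0.05149). Etv5 had 17.9, 19.5, 29.8 and 26.8 CPM in WT ascending and 11.8, 12.6, 13.6 and 11.0 CPM in WT descending libraries. In C1041G/+ it had 24.9, 26.7, 34.0 and 26.4 CPM in ascending and 18.3, 20.6, 18.4 and 16.2 CPM in descending libraries. No descending library reached an ascending library of its genotype, and the log2 fold change was 0.94 ± 0.15 (adjusted p = 0.0002383) in WT and 0.61 ± 0.147 (adjusted p = 0.01092) in C1041G/+.

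**Figure D2:**
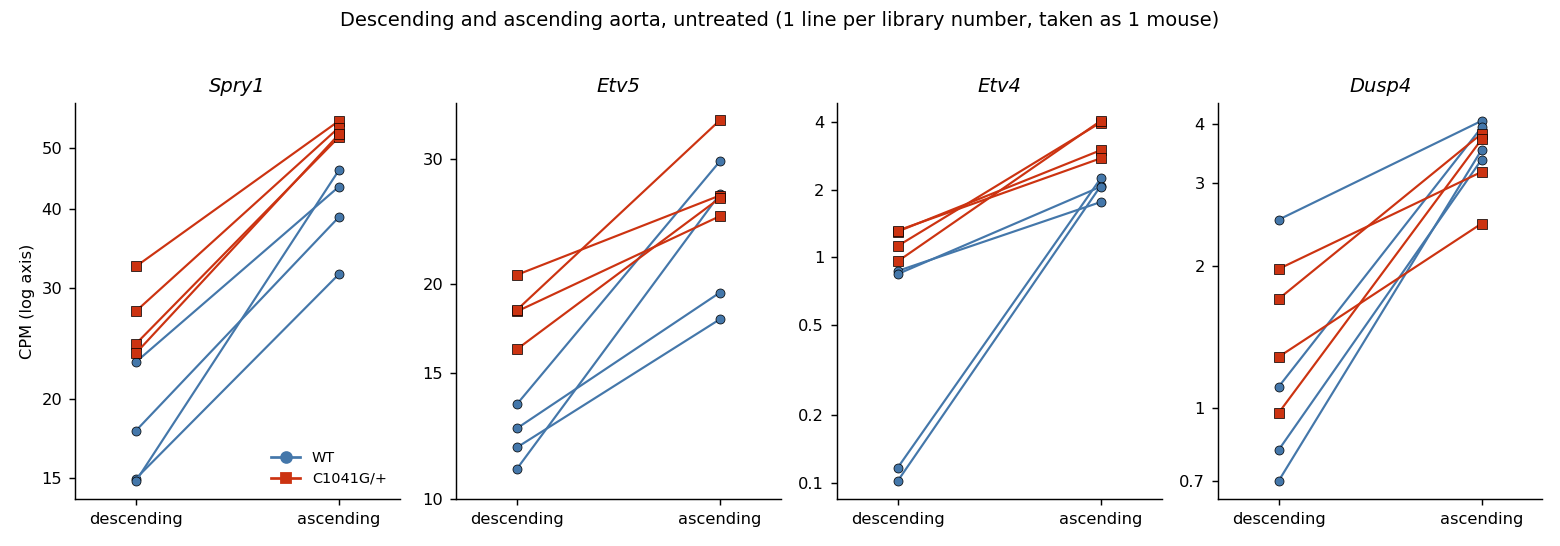
CPM (log axis) of Spry1, Etv5, Etv4 and Dusp4 in the descending and ascending library with the same number, 1 line per mouse, with 4 WT mice (blue circles) and 4 C1041G/+ mice (red squares). All 8 lines rise towards the ascending aorta in each gene. The regions of these genes do not overlap within a genotype, so any pairing of libraries would rise. The median ratio was 2.12 for Spry1, 1.59 for Etv5, 2.99 for Etv4 and 2.89 for Dusp4.

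Within mice, 7 of the 10 genes had the higher value in the ascending library in 8 of 8 mice: Spry1, Spry2, Spry4, Spred1, Dusp4, Etv4 and Etv5. For Spry1, Dusp4, Etv4 and Etv5 this follows from the separation of regions within each genotype, whatever the pairing. No share of all genes with this pattern is given, so the count only describes the list. The smallest ratios within a mouse were 1.70 for Spry1, 1.02 for Spry2, 1.17 for Spry4, 1.06 for Spred1, 1.61 for Dusp4, 2.02 for Etv4 and 1.29 for Etv5. Spred3 was higher in ascending aorta in 7 of 8 mice, and Spred2 and Dusp6 in 6 of 8.

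Markers of other tissues moved with region. The heart muscle score was 4.26 ± 1.28 in WT ascending and 3.41 ± 0.873 in mutant ascending aorta, against 0.119 in both descending groups (± 0.216 and ± 0.268, SD, n = 4 each), and 10 of 12 heart markers were called higher in WT and 7 of 12 in C1041G/+. Summed heart marker levels were 289.9 to 1173 CPM and 313.4 to 678.8 CPM in the ascending groups, and 74.38 to 147 CPM and 128.2 to 247.9 CPM in the descending groups. All 9 mesothelial markers were called higher in ascending aorta in both genotypes, with summed levels of 372.3 to 689 CPM in ascending and 9.264 to 34.33 CPM in descending libraries. Schwann cell markers were called higher in 6 of 8 in WT and 2 of 8 in C1041G/+, with summed levels of 29.1 to 46.72 CPM in ascending and 12.24 to 30.59 CPM in descending libraries. In WT, 5 of 9 tested cartilage markers and 4 of 10 fibroblast markers were also called higher in ascending aorta. Summed endothelial markers went the other way in WT, at 1657 to 2160 CPM in ascending and 2637 to 3505 CPM in descending libraries. Of 12, 3 were called higher and 6 lower in WT, and 3 higher and 1 lower in C1041G/+. The white and brown adipocyte score was also lower in ascending aorta, with overlap. It was 3.32 ± 0.943 against 4.32 ± 0.718 in WT and 2.78 ± 0.993 against 4.12 ± 0.735 in C1041G/+. Of its 10 markers, 1 and 2 were called lower. In a fit with the heart score as covariate, Spry1 stayed called, at a log2 fold change of 1.53 in WT (adjusted p = 0.02071) and 1.26 in C1041G/+ (adjusted p = 0.01588). The other regional calls of the list were lost in that fit, with adjusted p of 0.4971 to 0.7765 in WT and 0.5037 to 0.7678 in C1041G/+, while their log2 fold changes were 0.34 for Spred1, 1.78 for Dusp4, 2.23 for Etv4 and 0.72 for Etv5 in WT and 1.36, 1.68 and 0.43 for Dusp4, Etv4 and Etv5 in C1041G/+. The score itself does not overlap between regions, so that fit can barely separate the score from the region. The part of mesothelial, Schwann, cartilage, fibroblast, endothelial and adipocyte cells in the regional differences was not tested.

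The second question was whether the C1041G mutation changed these genes. In ascending aorta 0 of the 10 genes were called, while 2.19% of all genes were called in either direction. DESeq2 called 0 as well. At an unadjusted p under 0.05, 1 of the 10 passed in ascending aorta beside 2538 of 15645 genes, and 5 of the 10 in descending aorta beside 1691 genes. In descending aorta 1 gene, Spry1, was called higher and 0 lower, against 0.678% of all genes called higher. The mutant libraries lay above all WT libraries without overlap for Spry1 and Etv4 in ascending aorta, against 4.92% of all genes, and for Spry1, Spred1, Etv4 and Etv5 in descending aorta, against 3.48% of all genes. The median log2 fold change over the list was 0.15 in ascending and 0.21 in descending aorta, beside -0.01 and 0.00 for all genes. The log2 fold change was above 0 for 7 of 10 genes in ascending and 10 of 10 in descending aorta.

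Spry1 was 17.7 ± 3.78 CPM (SD, n = 4) in WT and 27.1 ± 3.99 in mutant descending aorta, a log2 fold change of 0.61 ± 0.141 (SE, adjusted p = 0.03908) or 1.53-fold. The call was lost in 6 of 8 fits that each left out 1 library, with adjusted p of 0.006625 to 0.1242 over the 8: without WT library 1, 3 or 5 or mutant library 2, 4 or 6. Without the 3 libraries that stand apart it was 0.54 with adjusted p = 0.06892. The macrophage score was 5.41 ± 0.555 in WT and 5.85 ± 0.188 in mutant descending aorta, with 0 of 9 markers called. The mesothelial score was 0.15 ± 0.407 and 0.965 ± 0.492, with 1 of 9 markers called higher, and the Schwann cell score 0.156 ± 0.506 and 0.745 ± 0.34, with 0 of 8 called. Cartilage and endothelial markers went the other way without overlap. The cartilage score was 1.05 to 1.35 in WT and 0.619 to 1.03 in mutant descending libraries, although 1 of 9 tested markers was called higher. Summed endothelial markers were at 2637 to 3505 CPM in WT and 2274 to 2604 CPM in mutant libraries, with 0 of 12 called. The part of all these cells in the Spry1 difference was not tested. In ascending aorta Spry1 was 40.01 ± 6.37 CPM in WT and 53.4 ± 1.42 in mutant libraries, which did not overlap, and the log2 fold change was 0.42 ± 0.135 (adjusted p = 0.1198). Spry4 had log2 fold changes of 0.51 (95% interval -0.03 to 1.05) in ascending and 0.70 (0.14 to 1.26) in descending aorta, with adjusted p of 0.3462 and 0.2947 and overlapping libraries. Spry2 was nearly level in descending aorta, with 20.1 ± 3.81 CPM in WT and 20.2 ± 5.66 in mutant libraries, and its interval of -0.44 to 0.46 leaves room for a change in either direction.

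Etv5 came next to Spry1 in descending aorta, at 12.2 ± 1.09 CPM in WT and 18.4 ± 1.80 in C1041G/+, with a log2 fold change of 0.59 ± 0.151 and adjusted p = 0.07248. DESeq2 gave Etv5 an adjusted p of 0.01417 and the fit with no count filter 0.02648, so each of those called 2 members. The fit of only the 2 groups compared called Etv5 (adjusted p = 0.02815) and not Spry1 (adjusted p = 0.09031). In ascending aorta the Etv5 log2 fold change was 0.25 (95% interval -0.05 to 0.56). Etv4 was 0.483 ± 0.432 CPM in WT and 1.18 ± 0.168 in mutant descending aorta, with a log2 fold change of 1.27 ± 0.45 and adjusted p = 0.249. In ascending aorta it was 2.04 ± 0.201 and 3.44 ± 0.662 CPM, with a log2 fold change of 0.76 ± 0.372 and adjusted p = 0.3295. The mutant libraries of Etv4 were above the WT libraries in both regions, yet the low counts left the intervals at -0.03 to 1.54 and 0.32 to 2.22.

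For the Spred genes and Dusp6 the estimated genotype differences were small, and for Dusp4 the estimate was imprecise. Spred1 was 74.2 ± 6.68 CPM in WT and 86.5 ± 3.12 in mutant descending aorta, with a log2 fold change of 0.22 (95% interval 0.07 to 0.38) and adjusted p = 0.2078. In ascending aorta its interval was -0.12 to 0.19. Spred2 had log2 fold changes of -0.15 (-0.34 to 0.04) in ascending and 0.07 (-0.12 to 0.27) in descending aorta, and Spred3 -0.07 (-0.42 to 0.29) and 0.05 (-0.31 to 0.42). Dusp6 had 0.08 (-0.14 to 0.30) and 0.13 (-0.09 to 0.35), so a doubling lies outside both intervals. Dusp4 had -0.18 (-0.82 to 0.47) and 0.20 (-0.52 to 0.92), wider because of its low counts.

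The effect of genotype was also compared between the 2 regions. For this interaction 0 of the 10 genes were called, and 0 passed an unadjusted p under 0.05, against 795 of 15645 genes at that level and 1 gene called, or 0.00639%. DESeq2 also called 0 of the 10. The log2 difference (ascending genotype effect minus descending genotype effect) was below 0 for 9 of 10 genes, with a median of -0.19, and ranged from -0.51 for Etv4 to 0.20 for Spry2. The intervals were wide, -0.61 to 0.21 for Spry1 and -0.77 to 0.11 for Etv5. The call of Spry1 in descending aorta alone therefore does not show that its genotype difference depends on region.

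**Figure D3:**
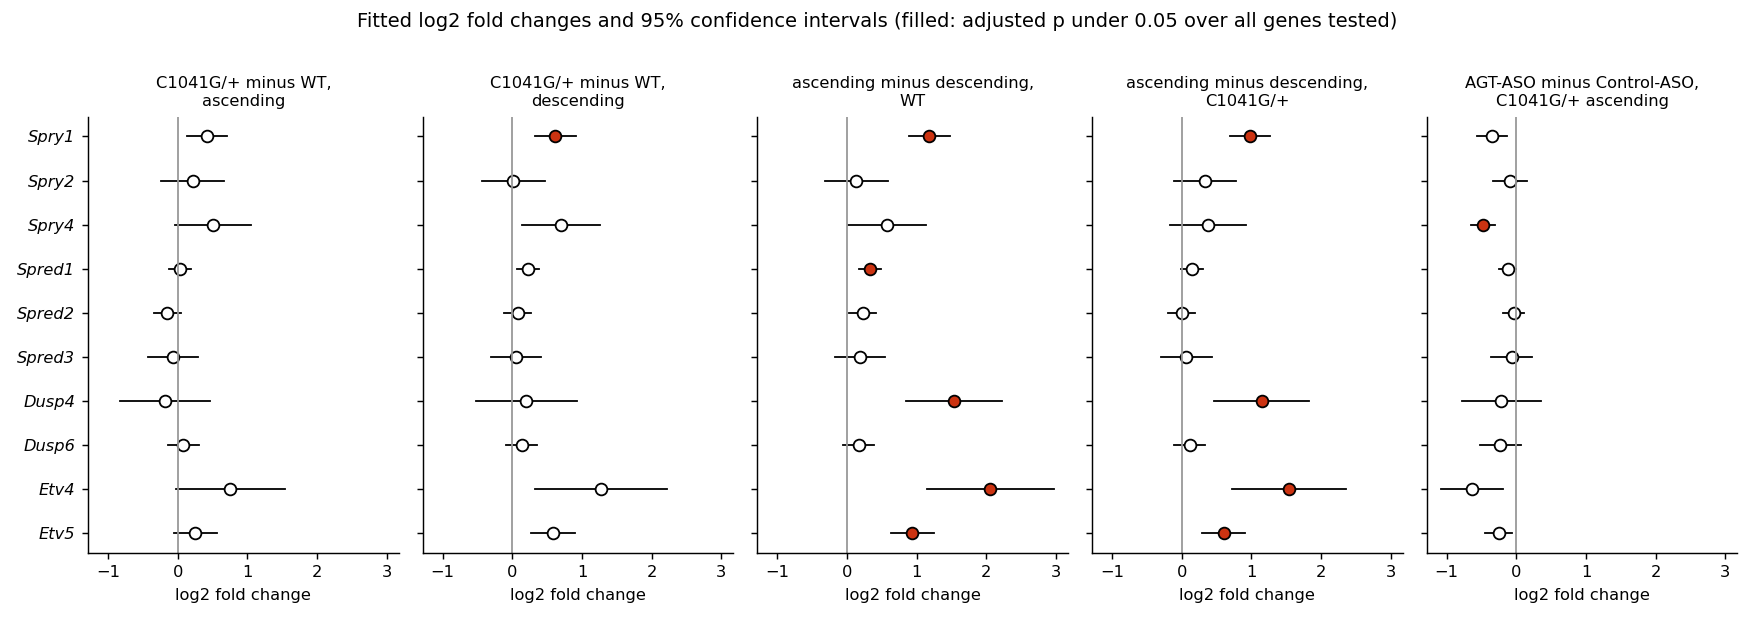
Fitted log2 fold changes (points) with 95% confidence intervals (lines) of the 10 genes in 5 comparisons, each titled with its direction. The fit did not pair libraries by number. Filled points passed an adjusted p of 0.05 over all genes tested: 0 in the ascending genotype comparison, 1 in the descending one, 5 and 4 in the regional comparisons, and 1 (Spry4, -0.48) with AGT-ASO.

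The third question was whether AGT-ASO, compared with Control-ASO, changed these genes in mutant ascending aorta. Whether AGT-ASO lowered angiotensinogen cannot be read from these libraries. Spry4 was lower with AGT-ASO and was the only member called; 0 were higher. Over all 14981 genes 8, or 0.0534%, were called lower and 2 higher, and Spry4 ranked 8 by p. All 10 members had a log2 fold change below 0, with a median of -0.22 beside -0.01 for all genes, of which 51.5% were below 0. Libraries did not overlap for 3 members, Spry1, Spry4 and Spred1, against 1.14% of all genes lower without overlap.

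Spry4 had 42.8, 41.0, 47.3, 39.9 and 40.6 CPM with Control-ASO and 30.3, 29.96, 26.5, 30.2 and 34.7 CPM with AGT-ASO. The highest AGT-ASO library was below the lowest Control-ASO library. The means were 42.3 ± 2.99 and 30.3 ± 2.92 CPM (SD, n = 5 each), and the log2 fold change was -0.48 ± 0.0816 (SE, 95% interval -0.65 to -0.31, adjusted p = 0.03778), a level 28.3% lower. The direction and size held in all 16 alternatives, from -0.54 to -0.43, while the call was kept in 7 of them, with adjusted p from 0.0003538 to 0.1412. It was lost without any 1 of AGT-ASO libraries 15, 18 and 19 or Control-ASO libraries 12, 13, 16 and 17.

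Spry1 had 32.0, 34.7, 33.9, 36.9 and 39.8 CPM with Control-ASO and 29.4, 21.1, 30.6, 31.2 and 27.3 CPM with AGT-ASO. The groups did not overlap but came within 1 CPM of each other, and the log2 fold change was -0.34 ± 0.102 (adjusted p = 0.1958). Spry2 was at 22.9 to 35.1 and 21.4 to 29.1 CPM, overlapping, with a log2 fold change of -0.09 (95% interval -0.34 to 0.15). Spred1 had 88.8, 92.3, 92.7, 86.4 and 95.7 CPM with Control-ASO and 85.6, 79.5, 85.2, 84.1 and 84.4 with AGT-ASO. Its groups were separate by less than 1 CPM, and the log2 fold change was -0.12 ± 0.0568 (adjusted p = 0.3865). Spred2 and Spred3 overlapped, with log2 fold changes of -0.04 (-0.19 to 0.11) and -0.06 (-0.36 to 0.23).

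The ETS factors gave Etv4 5.60, 7.91, 11.4, 10.1 and 8.17 CPM with Control-ASO and 7.45, 4.795, 6.497, 4.04 and 4.84 CPM with AGT-ASO. The groups overlapped, and the log2 fold change of -0.64 ± 0.209 had an adjusted p of 0.2303. Etv5 had 35.0, 43.4, 40.5, 37.2 and 39.8 CPM with Control-ASO and 35.5, 35.8, 27.3, 35.9 and 29.6 CPM with AGT-ASO. Only the lowest control library lay within the AGT-ASO range, and the log2 fold change was -0.25 ± 0.092 (adjusted p = 0.273). Dusp6 was at 23.7 to 38.5 and 21.4 to 33.0 CPM, with a log2 fold change of -0.23 (95% interval -0.52 to 0.06), and Dusp4 at 2.20 to 5.90 and 2.65 to 3.41 CPM, with -0.22 (-0.79 to 0.35). At an unadjusted p under 0.05, 5 of the 10 genes passed (Spry1, Spry4, Spred1, Etv4 and Etv5) beside 1906 of 14981 genes.

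Heart muscle markers and the mitochondrial share of counts moved with the antisense groups. The heart muscle score was 5.20 ± 0.76 with Control-ASO and 3.79 ± 0.749 with AGT-ASO (SD, n = 5 each), and the summed level of its 12 markers was 752.7 to 1700 CPM and 332 to 756 CPM; the groups overlapped, and 0 of 11 tested markers were called. Mitochondrial genes took 5.523% to 11.128% of counts with Control-ASO and 3.757% to 6.996% with AGT-ASO. The Schwann cell score was 2.17 ± 0.727 and 1.17 ± 0.364, with 0 of 8 markers called. In the same order, the endothelial score was 4.86 ± 0.192 and 4.46 ± 0.525, with 0 of 12 markers called. The mesothelial score was 5.03 ± 0.181 and 4.57 ± 0.605. The white and brown adipocyte score was 2.99 ± 0.422 and 2.04 ± 0.907. The macrophage score was higher with AGT-ASO, at 4.49 ± 0.253 and 4.83 ± 0.458. The groups overlapped on these scores, and 0 of 9 tested markers were called on each of the last 3 lists. With this heart score in the fit, the Spry4 log2 fold change was -0.54 and its adjusted p 0.1412. That of Spry1 was -0.36, Etv4 -0.30 and Etv5 -0.18, while Dusp6 and Spred3 turned to 0.05 and 0.13. The part of Schwann, endothelial, mesothelial, adipocyte and macrophage cells and of the mitochondrial share in these differences was not tested.

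**Figure D4:**
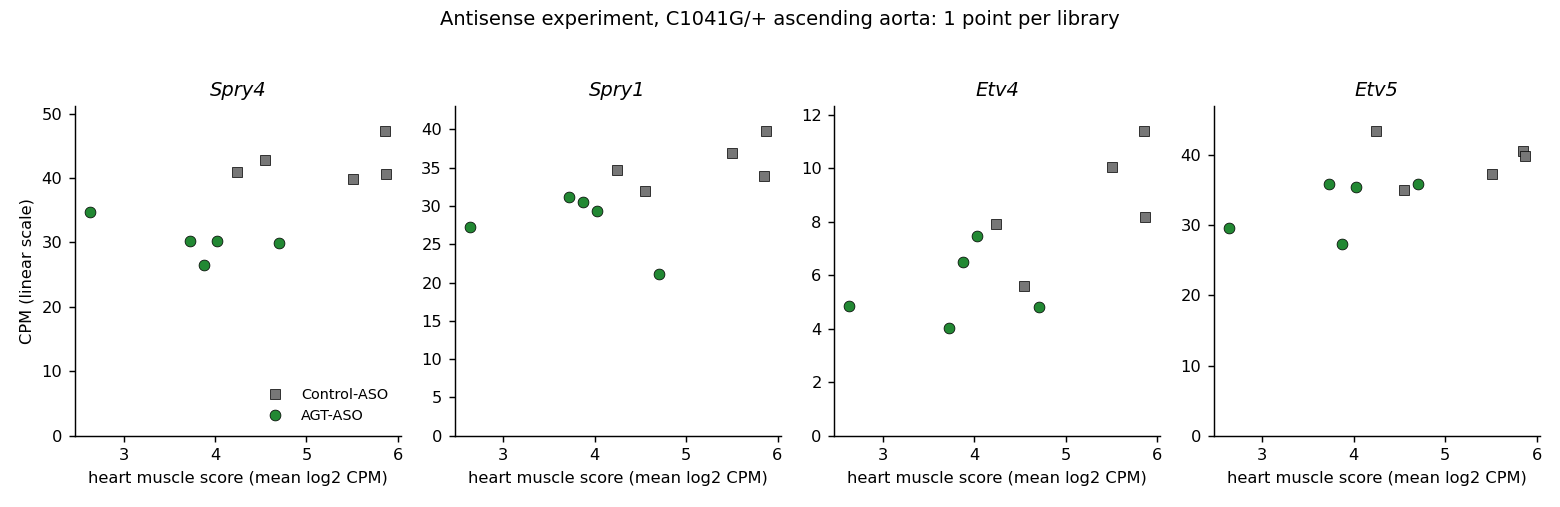
CPM (linear axis from 0) of Spry4, Spry1, Etv4 and Etv5 against the heart muscle score (mean log2 CPM of 12 heart muscle markers) in the antisense experiment, 1 point per library, with Control-ASO as grey squares and AGT-ASO as green circles (n = 5 each). AGT-ASO libraries sit at scores of 2.63 to 4.70 and Control-ASO libraries at 4.24 to 5.87. The scores overlap in AGT-ASO library 15 and Control-ASO libraries 8 and 12.

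The genotype comparison in untreated ascending aorta and the antisense comparison share no library, and both log2 fold changes can be set side by side for each member, the mutation first and AGT-ASO second. Spry1 had 0.42 and -0.34, Spry2 0.21 and -0.09, and Spry4 0.51 and -0.48. Spred1 had 0.03 and -0.12, while Spred2 had -0.15 and -0.04 and Spred3 -0.07 and -0.06. Dusp4 had -0.18 and -0.22, Dusp6 0.08 and -0.23, Etv4 0.76 and -0.64, and Etv5 0.25 and -0.25. Spred2, Spred3 and Dusp4 were thus below 0 in both, and of all these values only that of Spry4 with AGT-ASO passed the test.

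The wider pathway was read from 7 lists holding 123 genes, of which 114 were tested in the untreated and 112 in the antisense fit. Between regions, 26 were called higher and 3 lower in WT ascending aorta, and 21 higher and 3 lower in C1041G/+. For genotype, 7 were called higher and 2 lower in ascending aorta, and 2 higher and 1 lower in descending aorta. For AGT-ASO 0 of 112 were called in either direction, and for the interaction 0 of 114. Over all genes, 7.82% were called higher between WT regions and 6.41% between mutant regions. For genotype, 2.19% were called in either direction in ascending aorta and 0.678% higher in descending aorta. Only 10 of 14981 genes were called for AGT-ASO and 1 of 15645 for the interaction. With so few calls, a count of 0 cannot show that the pathway did not respond.

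Ligands and receptors made up most of the regional calls. Of 15 FGF and EGF family ligands tested, 8 were higher and 1 lower in WT ascending aorta and 10 higher and 1 lower in C1041G/+. Nrg1, a ligand of ERBB receptors, was 9.27 ± 4.06 CPM in WT ascending and 0.618 ± 0.325 in WT descending aorta, a log2 fold change of 3.89 ± 0.385 (SE, adjusted p = 1.406e-06). Fgf10 was 2.76 ± 1.21 and 0.24 ± 0.0796 CPM, a log2 fold change of 3.48 ± 0.414 (adjusted p = 1.01e-05). Of 20 receptor tyrosine kinases, 6 were higher and 2 lower in WT and 4 higher and 1 lower in C1041G/+. Kdr, the main VEGF receptor of endothelium, was 38.1 ± 5.99 and 4.49 ± 2.55 CPM in the WT regions. The endothelial score, whose 12 markers include Kdr itself, was 6.36 ± 0.107 and 6.18 ± 0.166. Of these markers, 3 were called higher and 6 lower in WT ascending aorta. Their summed level was 1657 to 2160 CPM in WT ascending and 2637 to 3505 CPM in WT descending libraries.

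Fgfr2 was lower in ascending aorta, at 76.6 ± 8.31 CPM in WT ascending and 127 ± 18.8 in WT descending aorta, a log2 fold change of -0.73 ± 0.113 (adjusted p = 0.0001723). It was also higher in mutant than in WT aorta in both regions, by 0.74 ± 0.113 (adjusted p = 0.001339) in ascending and 0.61 ± 0.112 (adjusted p = 0.007939) in descending aorta. Its mutant libraries reached 128 ± 14.3 and 193 ± 17.4 CPM. Fgfrl1, an FGF receptor that lacks the kinase domain, was lower in mutants in both regions, with log2 fold changes of -0.49 ± 0.0844 (adjusted p = 0.003992) and -0.49 ± 0.0846 (adjusted p = 0.005009). Its ascending libraries were at 104.3 to 132.4 CPM in WT and 75.78 to 94.85 CPM in C1041G/+. Both genes kept their genotype calls in all 17 alternatives of each region.

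In ascending aorta the mutant was also higher for 4 ligands, Ereg, Fgf1, Fgf16 and Fgf2. Ereg, an EGF receptor ligand, was 17.5 ± 2.70 CPM in WT and 33.7 ± 3.39 in C1041G/+, a log2 fold change of 0.94 ± 0.122 (adjusted p = 0.000367). Fgf2 was 184 ± 11.8 and 261 ± 14.6 CPM, a log2 fold change of 0.50 ± 0.0838 (adjusted p = 0.002999). Ereg and Fgf2 kept these calls in all 17 alternatives. Fgfr1 (0.25, adjusted p = 0.04599) and Fgf16 (0.67, adjusted p = 0.04051) kept theirs in 4 and 6 of 17, and Ksr1, a scaffold of the cascade (-0.26, adjusted p = 0.03067), in 5 of 17. Plaur, the urokinase receptor and 1 of 21 other ERK response genes, was 19.6 ± 1.58 and 32.6 ± 7.47 CPM, a log2 fold change of 0.74 ± 0.16 (adjusted p = 0.02029). Its call was kept in 13 of 17 alternatives and was lost without WT library 3 (adjusted p = 0.06632) or mutant library 2 (adjusted p = 0.07992). The macrophage score in the same comparison was 5.49 to 5.70 in WT and 5.81 to 6.18 in mutant libraries, without overlap, and 0 of 9 macrophage markers were called. Cartilage and fibroblast markers separated the genotypes in the other direction. The cartilage score was 2.06 to 3.46 in WT and 1.21 to 2.04 in mutant libraries. Of 9 tested cartilage markers, 1 was called higher and 2 lower. Summed fibroblast markers were at 7532 to 10520 CPM in WT and 5764 to 7069 CPM in mutant libraries. Of 10 fibroblast markers, 1 was called higher and 1 lower. The part of macrophages, cartilage and fibroblasts in these differences was not tested. In descending aorta Rasal2, a RAS GTPase-activating protein, was called higher (0.61, adjusted p = 0.04375) and kept this in 7 of 17 alternatives.

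The lists between the receptor and ERK are read beside 1741 of 15645 genes called in either direction between WT regions. In that comparison, 3 of 20 adaptors and RAS regulators were called, Gab2, Rasal2 and Rasgrp3, all higher in ascending aorta, and 1 of 20 cascade genes, Rps6ka2, which encodes a kinase activated by ERK. Rps6ka2 was 43.3 ± 4.34 CPM in WT ascending and 16.96 ± 3.65 in WT descending aorta, a log2 fold change of 1.36 ± 0.148 (adjusted p = 3.931e-06). Of 8 other MAP kinase phosphatases only Dusp5 was called, higher in ascending aorta by 1.12 ± 0.292 in WT (adjusted p = 0.01734) and 1.29 ± 0.282 in C1041G/+ (adjusted p = 0.005767). The WT call of Dusp5 was kept in 10 of 17 alternatives and was lost without ascending library 7 or descending library 1, 3 or 7, with adjusted p of 0.05626 to 0.06481. Of 10 genes listed as other feedback inhibitors, Flrt2, Flrt3, Il17rd and Lrig1 were higher in WT ascending aorta and Flrt2 and Flrt3 in C1041G/+. An inhibitory role of these genes is only the label of the list and was not tested. Flrt3, a membrane protein that binds FGF receptors, was 3.34 ± 0.318 and 0.391 ± 0.103 CPM in the WT regions, a log2 fold change of 3.07 ± 0.297 (adjusted p = 8.98e-07). Among the response genes Epha2 was higher in ascending aorta in both genotypes, by 0.78 ± 0.16 (adjusted p = 0.002517) and 1.26 ± 0.158 (adjusted p = 2.21e-05), and Ccnd1 and Etv1, the third gene of the ETV4 subfamily, in WT, by 1.02 ± 0.203 (adjusted p = 0.002497) and 0.58 ± 0.168 (adjusted p = 0.03166). The Etv1 call was kept in 9 of 17 alternatives and was lost without WT ascending library 5 or 7 or any 1 of the 4 WT descending libraries, with adjusted p of 0.0546 to 0.1151.

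Genes whose pattern was most like that of a member were found by Spearman's rho of log2 CPM after removing group means, over 26 libraries and 13037 genes. They are given for the 5 members with the highest values, as a description. The libraries share tissue content and depth. Spry2 and Spry4 also differ between library numbers 1 to 4 and 5 to 8 in each untreated group. Removing group means leaves that difference in place. Spred1 was most like Abca8a (rho 0.874), Gfra2 (0.815) and Cpxm1 (0.815). Spry4 was most like Maged2 (0.85), Phf13 (0.848) and Jmjd6 (0.839), and Spry2 most like Cxcl12 (0.83), Cracr2a (0.826) and Tra2b (0.814). Spred3 was most like Srsf5 (0.842), Tspyl4 (0.828) and Srsf11 (0.825), and Spred2 most like Gtf2e1 (0.835), Nup153 (0.828) and Samd4b (0.813).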

How the data were processed

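The authors deposited 1 file per library with whole-number counts for each Ensembl identifier, not normalized. Per the labels' protocols, RNA came from a fibrous tissue kit and libraries from a NEBNext Ultra kit with 1 µg of RNA. Per the submitters' processing notes, fastp and STAR 2.6.1d were used with build mm10. How reads were assigned to genes, with which strand setting and annotation, is not given in the sources used here. Names, lengths and coordinates came from GENCODE M21 (GRCm38), which named 99.93% of 54532 identifiers; promoters came from RefSeq.

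Counts were fitted with the edgeR 4.0.16 quasi-likelihood test (R 4.3.3, TMM factors, filterByExpr by group, robust dispersions), two-sided, with Benjamini-Hochberg adjustment over all genes and a threshold of 0.05. The 16 untreated libraries were fitted together (15645 genes, 12 residual degrees of freedom, biological coefficient of variation 15.9%), and the 10 antisense libraries apart (14981 genes, 8 degrees of freedom, 17.1%). Depth was 17171652 to 28554356 counts per library, without molecular identifiers. Intervals are 95% intervals of the fit. The script was tested on simulated data.

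Members and lists were chosen with earlier results of these data known. All members are named, plus up to 3 called genes with the smallest p from each pathway list and comparison; others are named as counts of a list. The labels do not name the animals. Same-numbered regions correlated after removal of group means (8 pairs, r 0.162 to 0.305, other numbers -0.0331 on average). Of the 8 ascending libraries, 6 correlated best with their own number. Library numbers 1 to 4 and 5 to 8 also separate in all 4 untreated groups in 3.89% of genes. Same-numbered libraries share a side of that split. The correlations therefore cannot show that a number marks 1 mouse, and the pairing of regions by number is an assumption. Alternatives were other size factors, DESeq2 1.42.0, limma 3.58.1 voom, other filters, fits of only the groups compared, a heart muscle covariate, a replicate block, leaving out single libraries and, chosen after seeing the data, leaving out 3 libraries whose marker scores stand apart.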

Additional observations from a re-analysis of the deposited data

Results flagged for a closer look

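Of 60 groups of member CPM values examined for a library far from the rest of its group, 1 met the criterion, while chance alone gives about 1 in 20. It was Spred1 in AGT-ASO library 15, at 79.5 CPM beside 84.1 to 85.6 in the other 4 libraries of that group. Its gap to the nearest of them is 0.764 of the group's range. The same library had the lowest Spry1 value of its group, 21.1 CPM, and the highest heart muscle score of the AGT-ASO libraries, 4.70. Without it, the Spry4 log2 fold change with AGT-ASO was -0.47 and its adjusted p 0.08219, within a range of 0.0003538 to 0.1412 over all alternatives.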

How the results depend on the processing

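Spry1 between regions stayed called in all 17 alternatives of each genotype. Members called in descending genotype numbered 2 with DESeq2, 2 with no count filter and 0 without the 3 libraries that stand apart (chosen after seeing the data), and 0 to 1 with 1 library left out at a time. With the heart score as covariate, 1 member was called between regions in WT and 1 in C1041G/+; leaving out 1 library gave 2 to 4 in C1041G/+. For AGT-ASO the count was 0 with library totals, 0 with the heart covariate and 0 to 1 with 1 library left out. The cause was not tested. With the longest transcript as length, levels per kb in WT ascending aorta were 15.54 (Spred1), 1.684 (Spred3), 12.47 (Dusp6) and 0.8496 (Etv4). The replicate block, which pairs regions by library number, added Spry4 (0.5723) in WT and Spry2 (0.3458) and Spry4 (0.3943) in C1041G/+ to the regional calls and changed no other member call.

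Log2 fold changes that turned sign were all of uncalled genes, except Etv1 between WT regions. Library totals gave -0.02686 for Spred1 (ascending genotype) and -0.02345 for Spred2 (mutant regions). The replicate block gave -0.008021 for Spry2 (descending genotype) and -0.001102 for Spred2 (mutant regions). The heart covariate gave -0.3857 for Spry2 and -0.09556 for Etv1 (WT regions), -0.08812 for Spry2 and -0.0109 for Spred2 (mutant regions), and 0.1267 for Spred3 and 0.05206 for Dusp6 (AGT-ASO). With 1 library left out, the ranges were -0.004554 to 0.07704 for Spred1 and -0.1397 to 0.005498 for Spred3 (ascending genotype), -0.1181 to 0.1419 for Spry2 and -0.06852 to 0.1547 for Spred3 (descending genotype), -0.06318 to 0.05816 for Spred2 and -0.0226 to 0.1966 for Spred3 (mutant regions), -0.4534 to 0.06043 for Spry4, -0.2228 to 0.0006933 for Spred3 and -0.1275 to 0.03402 for Dusp6 (interaction), and -0.1529 to 0.01177 for Spry2, -0.06608 to 0.006494 for Spred2, -0.1525 to 0.01651 for Spred3 and -0.3424 to 0.05851 for Dusp4 (AGT-ASO).

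Over all genes, DESeq2 called 774 against 342 for ascending genotype, 407 against 189 for descending genotype, 33 against 1 for the interaction and 263 against 10 for AGT-ASO. The heart covariate left 154 (ascending genotype), 235 (WT regions), 325 (mutant regions) and 2 (interaction). For the interaction, no count filter gave 6, limma-voom 2, the replicate block 13 and leaving out the 3 libraries 5; the last gave 159 for ascending genotype. Library totals gave 0 and no count filter 147 for AGT-ASO, where leaving out 1 library gave 0 to 180. All 10 members passed the count filter, so the alternative for members below it gave no value. Etv4 and Dusp4 rest on few counts, which widens their intervals.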

Other observations

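In the untreated experiment, Spry2 and Spry4 were higher in the libraries numbered 5 to 8 than in those numbered 1 to 4 in all 4 groups, and Dusp6 was lower. Spry2 in mutant ascending aorta was at 18.4 to 21.4 CPM in the lower numbers and 30.7 to 31.7 CPM in the higher ones, and in WT ascending aorta at 18.3 to 19.1 and 25.0 to 25.7 CPM. Of 15645 genes, 325 were above and 283 below in the same way, 3.89% together. The labels give no litter, date or batch for these numbers. This split was noticed after the values were seen and was not tested; both genotypes are present on each side of it.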
